A study of Mus musculus with 4 samples.

Results

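Interstitial matrix and fibroblast genes are described here in mouse embryonic stem cells (ESCs) with and without induced deletion of Arid1a. Arid1a encodes a DNA-binding subunit of BAF, a complex that moves nucleosomes. A list of 35 gene symbols fixed the members, and 31 of them stood in the deposited table of 14382 genes. Dcn, Lum, Postn and Prrx1 were not listed in that table and were not analysed here. Both groups had the genotype Arid1af/f:CreERT2, in which loxP sites flank part of Arid1a and 4-hydroxytamoxifen (4-OHT) switches on the recombinase CreERT2. The control group received ethanol and the other group 1 µM 4-OHT, each for 24 hours, and polyA RNA was collected 72 hours after treatment. Each group had 2 libraries. Neither group received 4-OHT without the loxP sites, so effects of 4-OHT, CreERT2 and Arid1a loss cannot be told apart. Per the labels' protocols the ESCs were kept in serum, serum replacement and leukemia inhibitory factor on gamma-irradiated mouse embryonic fibroblast feeders. The libraries were prepared with either of a pair of kits, 1 of them stranded, and the labels do not tie a kit to a library, so kit and treatment cannot be told apart.

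Fibroblasts secrete the interstitial matrix, a mesh of fibrillar collagens, microfibrils and proteoglycans that lies between cells, unlike the basement membrane on which epithelia rest. Collagen chains are assembled as trimers inside the cell, trimmed outside it and cross-linked by lysyl oxidases, and matrix metalloproteases and their TIMP inhibitors govern its turnover. The same genes are common markers of mesenchymal cells, and feeder fibroblasts are a known source of such transcripts in ESC cultures.

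Levels are given as CPM (reads scaled to the effective size of the library), with the libraries of a group called A and B. The recovered totals were 6195567 to 7012664 reads a library, 1 read was worth 0.142 to 0.159 CPM, and 3 reads, the limit that a count of 0 allows, came to 0.426 to 0.477 CPM (counting error only). Arid1a fell from 510 ± 10.7 to 227 ± 19.8 CPM (SD, n = 2 per group; limma adjusted p = 7.27e-06), over reads of the whole gene. Nothing in the labels says that the libraries came from separate cultures, so p-values speak only for these samples. Each limma p-value sets a group difference against the spread within groups, partly borrowed from other genes (total degrees of freedom 10.1). That spread may be technical. In bulk RNA, fewer cells of a type and less RNA per cell cannot be told apart.

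The upstream bases of the members that passed the test are shown first, since these genes moved in opposite directions. Of the 9 such members, 5 had an entry in the RefSeq promoter table (GRCm38.p6, the mm10 assembly). The 120 bases before the RefSeq start site are printed 5′ to 3′ on the gene's strand. Gencode gene spans, used for positions below, can start elsewhere. The windows of Col1a2 and Fstl1 lie inside those spans, and that of Timp3 does in part. Capitals mark CCAAT and GGGCGG, searched on both strands, so that ATTGG and CCGCCC are the same motifs read from the other strand.
Col1a2, rose, chr6:4505498-4505617, plus strand: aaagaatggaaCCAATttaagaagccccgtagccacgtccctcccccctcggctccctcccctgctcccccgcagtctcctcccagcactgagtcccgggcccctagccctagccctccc
Timp3, rose, chr10:86300292-86300411, plus strand: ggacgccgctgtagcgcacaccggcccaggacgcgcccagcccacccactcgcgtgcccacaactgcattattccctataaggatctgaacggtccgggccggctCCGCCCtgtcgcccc
Vcan, fell, chr13:89742513-89742632, minus strand: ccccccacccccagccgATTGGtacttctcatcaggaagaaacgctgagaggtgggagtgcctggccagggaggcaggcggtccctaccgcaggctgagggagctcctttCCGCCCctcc
Mmp14, fell, chr14:54431478-54431597, plus strand: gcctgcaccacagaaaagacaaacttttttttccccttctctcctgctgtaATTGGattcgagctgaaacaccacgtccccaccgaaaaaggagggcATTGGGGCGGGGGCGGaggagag
Fstl1, fell, chr16:37776935-37777054, plus strand: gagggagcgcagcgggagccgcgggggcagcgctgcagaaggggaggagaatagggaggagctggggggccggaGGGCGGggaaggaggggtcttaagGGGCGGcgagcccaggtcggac
CCAAT stood in Col1a2, which rose, and in Vcan and Mmp14, which fell, so neither direction had it alone. GGGCGG stood in Timp3, Vcan, Mmp14 and Fstl1, and in Mmp14 its first base is also the last base of ATTGG. Over all 32851 windows of 120 bases, 21.3% held CCAAT and 26.5% held GGGCGG. Of the 21 members with an entry, 5 held CCAAT and 11 held GGGCGG in any of their windows. The percentages count windows and the member numbers count genes, some with several windows, so the units differ. These matches describe letters only.

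With 4-OHT, 4 of the 31 members rose and 5 fell, while 22 were not past the test, which is limma on log2(CPM + 1) with p-values adjusted over all 14376 tested genes. The members past the threshold of 0.05 were 29.0% of those measured, against 9.46% of all tested genes. The list was chosen with earlier results of these data known, so this contrast is only described. The background was 5.24% for rises and 4.22% for falls. The rises were in Col1a2, Thbs1, Timp3 and Thy1, and the falls in Col5a2, Vcan, Fstl1, Mmp14 and Tagln. The median log2 fold change of the members was -0.01, and that of all genes -0.0016, with 15 members above 0 and 16 below. Folds of mean CPM ran from 0.670 to 2.32. In 21 of the 31 members the groups did not overlap, against 52.1% of all genes, and Bgn is among them only before rounding. On recovered reads, edgeR called 5 members higher and 5 lower of 29 tested (background 8.12% and 7.63%, 15.8% in all), and DESeq2 called 3 and 3 of 30 (background 5.21%). The limma calls depended on having both 4-OHT libraries. Without 4-OHT A or without 4-OHT B, the 9 called members kept the sign of their log2 fold change in limma and edgeR. Such fits leave a group with 1 library, which is assumed to vary like the libraries of the other group. Among genes with a mean of at least 1 CPM in the same limma fit, the background was 9.92%.

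**Figure D1:**
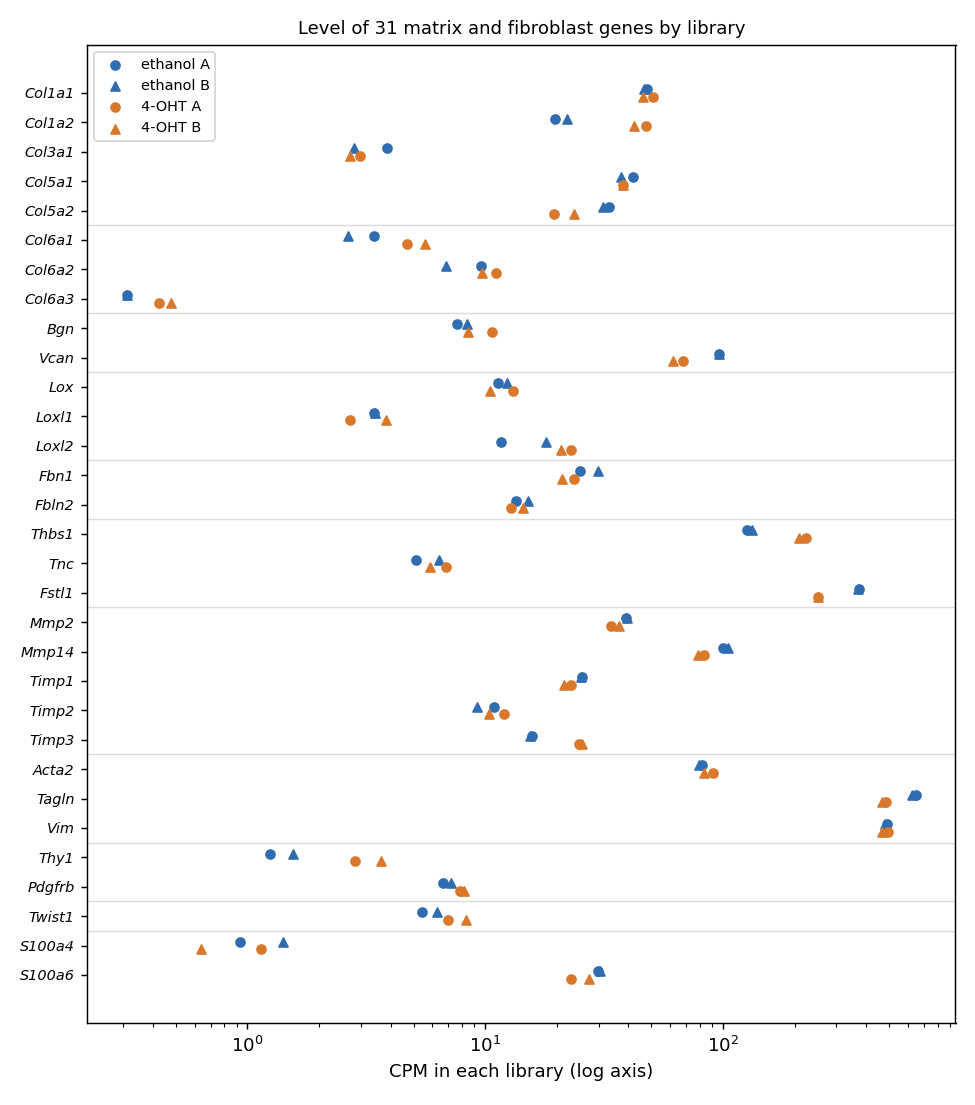
CPM (log axis) of the 31 members in each library, ethanol in blue and 4-OHT in orange, with circles for library A and triangles for library B; grey lines part the roles. Col1a2 and Thbs1 lie to the right with 4-OHT, Fstl1, Vcan and Tagln to the left, and Col1a1 and Vim coincide.

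The fibrillar collagens split. Col1a1 and Col1a2 encode the chains of type I collagen, the main fibre of interstitial matrix, whose usual trimer holds both chains. Col1a2 (ENSMUSG00000029661, mm10 chromosome 6, 4504814 to 4541544, plus strand) was at 19.7 and 22.0 CPM in ethanol and at 47.5 and 42.4 CPM with 4-OHT. Both 4-OHT libraries lay far above both ethanol libraries. It rose 2.16-fold, with a log2 fold change of 1.07 (SE 0.108, limma adjusted p = 0.000300), the largest change among the members on that scale. Col1a1 (chromosome 11, 94936224 to 94953042) was at 48.0 and 46.3 CPM in ethanol and at 50.7 and 45.9 CPM with 4-OHT. Its groups overlapped, it did not pass (limma adjusted p = 0.869), and the 95% interval of its log2 fold change was -0.16 to 0.22. The interval of Col1a2, 0.83 to 1.31, lay wholly above it.

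The ratio of Col1a2 to Col1a1 reads within a library does not depend on the scaling of that library. It was 0.410 and 0.475 in ethanol and 0.936 and 0.924 with 4-OHT. An exact permutation test of this ratio gave p = 0.333 (two-sided), the smallest that 2 libraries against 2 allow. Per kilobase of exon (all Gencode exons of the gene merged), the mean level of Col1a1 was 7.19 CPM per kb in ethanol and 7.37 with 4-OHT. That of Col1a2 was 1.68 and 3.62, so Col1a1 was the higher chain in both groups on this scale. The merged exons came to 6563 bases for Col1a1 and 12426 bases for Col1a2. Before division by length, the ratios with 4-OHT were 0.936 and 0.924, so most of the gap per kb in that group came from these lengths. The lengths of the transcripts present were not measured, so the excess of Col1a1 per transcript was not tested.

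Col5a1 and Col5a2 encode chains of type V collagen, which sits inside type I fibres and limits their width. Col5a2 (chromosome 1, 45374321 to 45503282, minus strand) was at 33.0 and 31.2 CPM in ethanol and at 19.5 and 23.5 CPM with 4-OHT, without overlap. It fell by 0.56 on the log2 scale (SE 0.12, limma adjusted p = 0.0153), a level 1.49 times lower, and DESeq2 did not call it (DESeq2 adjusted p = 0.0600). Its partner Col5a1 was at 42.0 and 37.3 CPM in ethanol and at 38.0 and 37.8 CPM with 4-OHT, with an interval of -0.27 to 0.15. The ratio of Col5a2 to Col5a1 was 0.786 and 0.837 in ethanol and 0.513 and 0.622 with 4-OHT (exact permutation p = 0.333, again the smallest possible). Col3a1 encodes the type III chain, abundant in skin and vessel fibroblasts. It stayed low, at 3.87 and 2.81 CPM in ethanol and 2.98 and 2.70 CPM with 4-OHT, from 17 to 25 reads a library, and did not pass (limma adjusted p = 0.697).

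**Figure D2:**
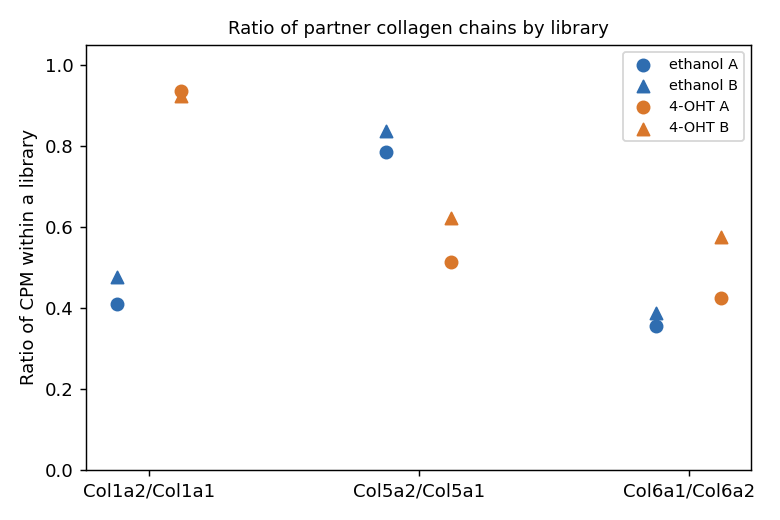
Ratio of CPM of partner collagen chains within each library (vertical axis), ethanol in blue and 4-OHT in orange. Col1a2/Col1a1 was 0.442 on average in ethanol and 0.930 with 4-OHT, Col5a2/Col5a1 was 0.811 and 0.567, and Col6a1/Col6a2 was 0.371 and 0.498.

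None of the 3 collagen VI genes passed in limma. Collagen VI forms beaded microfilaments around mesenchymal cells from one chain of each gene. Col6a1 was at 3.41 and 2.65 CPM in ethanol and at 4.69 and 5.56 CPM with 4-OHT, without overlap, from 39 against 68 reads in all (limma adjusted p = 0.0965; ratio of reads 1.12 to 2.56, exact 95% counting interval). Col6a2 was at 9.61 and 6.86 CPM in ethanol and at 11.1 and 9.70 CPM with 4-OHT, where 4-OHT B and ethanol A nearly met (limma adjusted p = 0.351). Col6a3, for the remaining chain, had 2 reads in each ethanol library and 3 in each 4-OHT library, at the limit of detection in both groups.

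Among proteoglycans, Vcan fell and Bgn did not pass. Vcan encodes versican, a large hyaluronan-binding proteoglycan of loose embryonic matrix (chromosome 13, 89655312 to 89742509, minus strand). It was at 95.9 and 96.6 CPM in ethanol and at 68.2 and 61.5 CPM with 4-OHT, and the lowest ethanol value exceeded the highest 4-OHT value by far more than the spread in either group. It fell by 0.56 on the log2 scale (SE 0.0745, limma adjusted p = 0.00122), a level 1.48 times lower. Bgn, for the small proteoglycan biglycan, was at 7.59 and 8.42 CPM in ethanol and at 10.7 and 8.42 CPM with 4-OHT (limma adjusted p = 0.502).

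The lysyl oxidases cross-link collagen and elastin. Lox and Loxl1 overlapped between the groups, at 10.5 to 13.1 CPM and at 2.70 to 3.81 CPM over the 4 libraries. Loxl2, which also acts on basement membrane collagen, was at 11.6 and 17.9 CPM in ethanol and at 23.0 and 20.8 CPM with 4-OHT. Its ethanol libraries differed more from each other than those of any other member (0.59 on the log2 scale), and it did not pass in limma (adjusted p = 0.0848). The quasi-likelihood test of edgeR called it higher (edgeR adjusted p = 0.00326). Fbn1, for the microfibril protein fibrillin-1, was at 25.0 and 30.0 CPM in ethanol and at 23.7 and 21.1 CPM with 4-OHT (limma adjusted p = 0.213), and 20.1% of its exon bases are shared with a gene on the opposite strand. Fbln2, for fibulin-2, ranged from 12.8 to 15.1 CPM with overlapping groups.

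Matricellular proteins signal to cells from the matrix rather than build it, and their genes moved apart. Thbs1 encodes thrombospondin-1, which binds cells and activates latent TGF-beta (chromosome 2, 118111876 to 118127133, plus strand). It was at 126 and 132 CPM in ethanol and at 224 and 210 CPM with 4-OHT. It rose 1.68-fold, with a log2 fold change of 0.74 (SE 0.0618, limma adjusted p = 0.000106), and the libraries of each group lay close together beside the gap between groups.

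Fstl1, for the secreted follistatin-like protein 1, went the other way (chromosome 16, 37776873 to 37836514). It was at 372 and 369 CPM in ethanol and at 250 and 252 CPM with 4-OHT, from 1587 to 2402 reads a library. It fell by 0.56 on the log2 scale (SE 0.0523, limma adjusted p = 0.000199), a level 1.47 times lower. Tnc, for tenascin-C, was low and overlapping, at 5.11 to 6.82 CPM over the 4 libraries.

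Of the matrix proteases and their inhibitors, Mmp14 fell and Timp3 rose. Mmp14 encodes a membrane-bound collagenase that also activates the gelatinase made from Mmp2. It was at 99.7 and 105 CPM in ethanol and at 83.6 and 78.4 CPM with 4-OHT, without overlap, and fell by 0.33 on the log2 scale (SE 0.0694, limma adjusted p = 0.0136). It was not called by DESeq2 (DESeq2 adjusted p = 0.0523) or by limma without ethanol B, where the log2 change was -0.30. Mmp2 was at 39.2 and 39.5 CPM in ethanol and at 34.0 and 36.4 CPM with 4-OHT, without overlap but short of the threshold (limma adjusted p = 0.334).

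Timp3, the inhibitor that binds to the matrix itself, was at 15.8 and 15.4 CPM in ethanol and at 24.7 and 25.4 CPM with 4-OHT. It rose 1.61-fold (log2 fold change 0.65, SE 0.118, limma adjusted p = 0.00664), the highest ethanol library standing well under the lowest 4-OHT library. The gene shares 21.3% of its exon bases with Syn3 on the opposite strand, and the use of strand in counting is not given in the sources used here. Syn3 itself had means of 9.56 and 13.2 CPM and did not pass. Timp1 (21.5 to 25.6 CPM) and Timp2 (9.20 to 11.9 CPM), the soluble inhibitors, did not pass.

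Tagln and Vim, both cytoskeletal, had the highest CPM of the members, and together with Fstl1 they made up 65.6% of the summed CPM of the members in ethanol and 58.7% with 4-OHT. Tagln encodes transgelin, an actin-binding protein of smooth muscle and activated fibroblasts. It was at 649 and 625 CPM in ethanol and at 485 and 465 CPM with 4-OHT, fell by 0.42 on the log2 scale (SE 0.0539, limma adjusted p = 0.000987) and showed no overlap. An antisense gene covers 62.4% of its exon bases. Acta2, for smooth muscle actin, which is often raised along with Tagln in myofibroblasts, was at 81.4 and 78.9 CPM in ethanol and at 91.3 and 83.4 CPM with 4-OHT (limma adjusted p = 0.351, interval of the log2 fold change -0.04 to 0.28). The ratio of Tagln to Acta2 was 7.97 and 7.92 in ethanol and 5.32 and 5.57 with 4-OHT (exact permutation p = 0.333). Vim, for the filament protein vimentin, was at 488 and 482 CPM in ethanol and at 492 and 467 CPM with 4-OHT, with an interval of -0.14 to 0.10.

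Thy1, a surface glycoprotein gene used to sort fibroblasts away from stem cells, was at 1.24 and 1.56 CPM in ethanol and at 2.84 and 3.66 CPM with 4-OHT. These levels rest on 18 against 43 reads, a depth-adjusted ratio of 2.31 with an exact 95% counting interval of 1.30 to 4.25. It rose by 0.82 on the log2 scale (SE 0.214, limma adjusted p = 0.0397). That call was lost with a pseudocount of 0.1 and in DESeq2 (DESeq2 adjusted p = 0.456), and in limma and edgeR without ethanol A, without ethanol B or without 4-OHT B (log2 fold changes 0.72, 0.92 and 0.68 in limma). Pdgfrb, the receptor gene of pericytes and fibroblasts, was at 6.66 and 7.18 CPM in ethanol and at 7.82 and 8.11 CPM with 4-OHT, which missed the threshold (limma adjusted p = 0.578). Twist1, for a mesenchymal transcription factor, was at 5.42 and 6.24 CPM in ethanol and at 6.96 and 8.27 CPM with 4-OHT (limma adjusted p = 0.305). S100a6, a calcium-binding protein gene, was at 29.8 and 30.4 CPM in ethanol and at 22.9 and 27.3 CPM with 4-OHT (limma adjusted p = 0.209). S100a4, a fibroblast marker from the same gene cluster, had 4 to 9 reads a library and overlapped between the groups, and 51.7% of its exon bases are shared with Gm42674 on the same strand.

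**Figure D3:**
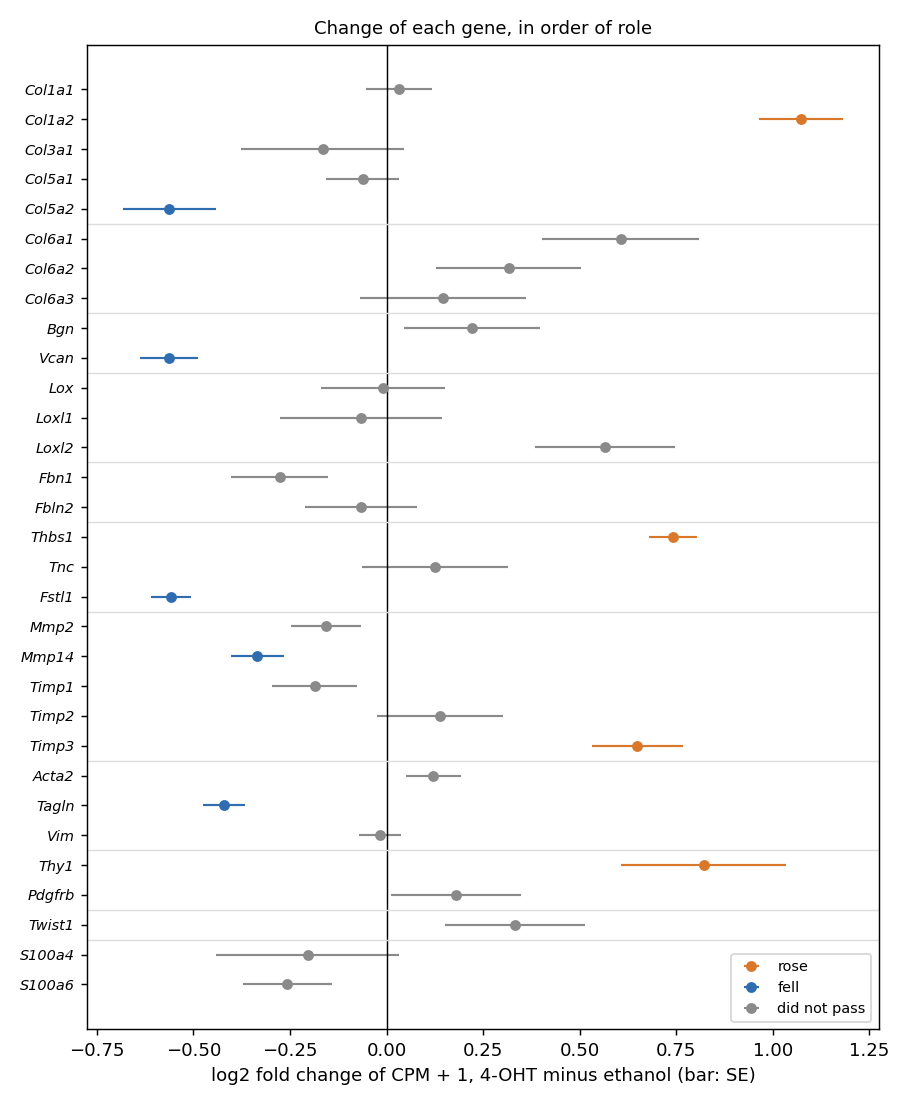
Each point is a member's log2 fold change of CPM + 1, positive where 4-OHT was higher, and bars are SEs; orange rose, blue fell and grey did not pass in limma, and grey lines part the roles. Both orange and blue points occur among the fibrillar collagens, the matricellular proteins and the protease group.

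A separate list held 20 fibroblast-defining markers, of which 13 were in the table and 11 of those are members. The sum of those measured is a level of these transcripts and does not measure the share of fibroblast RNA. Dcn, Lum, Postn, Prrx1, Dpt, Fap and Meox1 were not listed, and none of the 13 measured was at 0 in any library. Their summed level was 304 and 302 CPM in ethanol and 309 and 297 CPM with 4-OHT, 0.0297% to 0.0309% of the effective size of a library. The group means were 303 and 303 CPM, and the range with 4-OHT enclosed that in ethanol. The sum was 5.95% and 6.0% of the summed level of 12 ESC markers in the ethanol libraries and 5.94% and 5.59% in the 4-OHT libraries.

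Beneath this level sum the single markers moved apart. Their folds ran from 0.651 to 2.32 with a median of 1.09, with Col1a2 and Thy1 higher, Fbln1 and Col5a2 lower and 9 not past the threshold. Those past it in limma were 30.8% of the markers, beside 9.46% of all tested genes. Fbln1, for fibulin-1, fell from 75.5 ± 1.96 to 49.1 ± 0.472 CPM (limma adjusted p = 0.000740) and went from 24.9% to 16.2% of the sum, while Col1a2 went from 6.88% to 14.8%. Acta2 alone was 26.5% of the sum in ethanol and 28.9% with 4-OHT. Without it the sums were 223 and 215 CPM, and without Acta2, Lox, Twist1 and Pdgfra they were 202 and 192 CPM. Other cells also use those genes, and use some left in the sum too, such as Pdgfrb in pericytes. Fibroblasts of the feeder layer alone were not measured here, so the part of each transcript that came from them was not tested.

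**Figure D4:**
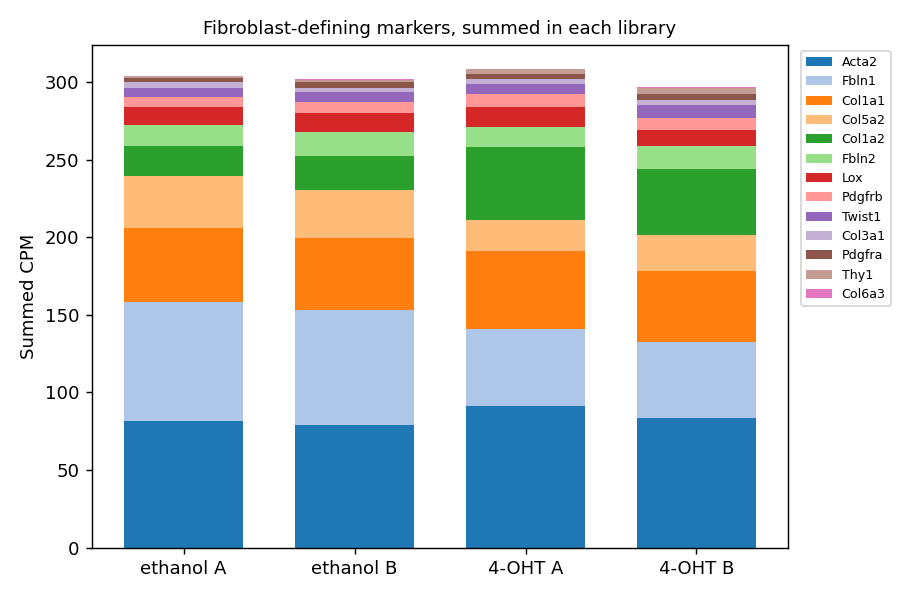
Summed CPM of the 13 measured fibroblast-defining markers in each library (bar height), divided by gene (colours). The bars reach 304, 302, 309 and 297 CPM, while the share of Col1a2 is larger and those of Fbln1 and Col5a2 smaller with 4-OHT.

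Genes near the members were read from other lists, beside a limma background of 9.46% of all tested genes past the threshold. The share past it was 26.7% of other fibroblast markers, 18.8% of other collagens, 14.8% of collagen synthesis genes and 23.5% of elastic fibre genes. For other metalloproteases and inhibitors it was 23.5%, for smooth muscle genes 31.6%, for TGF-beta and PDGF genes 15.0% and for mesenchymal transition genes 10.0%. Shares from 10.0% to 15.0% lie near the background. Of 15 other fibroblast markers in the table (of 27 listed), 3 rose, Fbln1 fell and 11 did not pass, with a median log2 fold change of 0.40. Gas1, a growth arrest gene, rose from 10.8 ± 1.82 to 19.2 ± 2.69 CPM, and Cxcl12, for a stromal chemokine, from 13.4 ± 0.928 to 23.7 ± 1.32 CPM. Sfrp1, for a secreted WNT antagonist, rose from 31.1 ± 0.0781 to 42.2 ± 1.42 CPM, a call that DESeq2 did not share (DESeq2 adjusted p = 0.118). Of 16 other collagen genes, 3 rose and none fell in limma (median -0.03). edgeR called 3 higher and 2 lower of 13 tested, beside 15.8% of all genes it tested. DESeq2 called 1 higher and 0 lower of 16 tested, beside 5.21% of all genes it tested. Col16a1 rose from 3.58 ± 0.0163 to 8.18 ± 0.116 CPM and the cartilage collagen Col2a1 from 28.8 ± 4.71 to 49.7 ± 0.850 CPM. Col5a3, the remaining type V chain, rose from 3.81 ± 0.752 to 7.20 ± 0.0682 CPM in limma, opposite in direction to Col5a2. DESeq2 called neither Col5a3 (DESeq2 adjusted p = 0.288) nor Col16a1 (0.0657).

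Collagen synthesis and maturation genes mostly did not pass, with 1 of 27 higher, 3 lower and a median of -0.01 in limma. DESeq2 called 0 higher and 1 lower of 25 tested, beside 5.21% of all genes it tested. Only Serpinh1 of the genes named here remained in DESeq2 (DESeq2 adjusted p = 4.20e-05). Serpinh1, the collagen chaperone gene, fell from 335 ± 19.1 to 256 ± 10.0 CPM. Plod2, for a lysyl hydroxylase of collagen ends, fell from 118 ± 8.46 to 97.0 ± 2.36 CPM, and Pcolce2, for an enhancer of propeptide removal, from 16.3 ± 0.404 to 10.5 ± 0.406 CPM. P4ha1, a subunit of the prolyl hydroxylase that stabilises the helix, rose from 19.7 ± 0.20 to 28.3 ± 2.33 CPM. The DESeq2 adjusted p was 0.136 for P4ha1, 0.118 for Plod2 and 0.222 for Pcolce2. Of 17 elastic fibre genes, Emilin1 (12.1 ± 0.0550 to 21.7 ± 2.14 CPM) and Fbn2 (11.6 ± 0.603 to 20.7 ± 1.13 CPM) rose and Ltbp1 (28.8 ± 1.08 to 20.6 ± 3.04 CPM) and Ltbp4 (198 ± 18.4 to 162 ± 1.93 CPM) fell, and of these Ltbp1 was not called by DESeq2 (DESeq2 adjusted p = 0.213).

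Of 17 other metalloprotease and inhibitor genes, 3 rose and 1 fell, with a median of 0.27. Mmp9, for a gelatinase, rose from 2.41 ± 0.319 to 7.99 ± 2.76 CPM and Timp4 from 0.778 ± 0.443 to 3.83 ± 0.0163 CPM. Adam17, for the main sheddase of growth factors, rose from 86.4 ± 0.504 to 104 ± 4.18 CPM and Adam9 fell from 44.2 ± 0.0186 to 32.4 ± 0.326 CPM, neither of them called by DESeq2 (DESeq2 adjusted p = 0.162 and 0.0916). Among 19 tested genes of serum response factor (SRF) and smooth muscle, 4 rose, 2 fell and 13 did not pass, with a median of 0.03; Actb could not be resolved into libraries. Cnn1, for calponin, rose from 50.4 ± 5.93 to 74.0 ± 0.102 CPM, Myl9, for a myosin light chain, from 52.9 ± 3.28 to 77.3 ± 2.60 CPM, and Tpm2 from 71.3 ± 1.1 to 92.4 ± 1.89 CPM. Myh11 rose from 5 to 21 reads in limma, was too low for edgeR and was not called by DESeq2 (DESeq2 adjusted p = 0.432). In all, edgeR called 3 genes of this list higher and 3 lower of 18 tested, and DESeq2 3 and 1 of 19. The shares over all genes tested were 15.8% in edgeR and 5.21% in DESeq2. The genes that fell, Tpm1 and Tpm4, are named because they are few, after their values were seen. Tagln, which fell, and Acta2, which did not pass, thus stood beside a list in which 4 genes rose, 2 fell and 13 did not pass.

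Of 20 genes of TGF-beta and PDGF signalling, Cyr61 rose from 188 ± 11.2 to 231 ± 4.12 CPM, Tgfbr2 fell from 3.89 ± 0.0177 to 1.78 ± 0.496 CPM, Ski fell from 280 ± 3.23 to 234 ± 8.06 CPM, and the other 17 missed the threshold (median 0.02). DESeq2 did not call Tgfbr2 (DESeq2 adjusted p = 0.430). Of 10 mesenchymal transition genes (median -0.07), which include the epithelial cadherin gene Cdh1, that gene alone was past the threshold in limma. Cdh1 was lower, at 389 ± 28.0 CPM with 4-OHT and 455 ± 12.0 CPM in ethanol. edgeR called 1 higher and 1 lower of 9 tested in this list, beside 15.8% of all genes it tested. Fn1, for fibronectin, which interstitial and basement membranes share, fell from 634 ± 13.4 to 283 ± 19.5 CPM (limma adjusted p = 4.37e-06), a larger change than that of any member that fell. Markers of other cell types moved in both directions: of 9 endoderm markers Sparc rose and Lamb1 fell, of 8 trophoblast markers Cdx2 rose and Krt8 fell, of 4 blood and endothelial markers Kdr and Cd68 rose and Tek fell, and their summed levels were 687 to 732, 236 to 258 and 46.9 to 57.6 CPM over the 4 libraries. Sparc, a matrix gene on the endoderm list that fibroblasts also express, rose from 350 ± 12.9 to 413 ± 31.1 CPM. Of 12 ESC markers, Nanog and Tdgf1 rose and Sox2, Esrrb and Tfcp2l1 fell, and Pou5f1, for the core pluripotency factor OCT4, was at 1442 ± 79.2 and 1439 ± 107 CPM. DESeq2 did not call Cd68 (DESeq2 adjusted p = 0.333) or Sox2 (0.0575). Past the limma threshold were 22.2% of endoderm, 25.0% of trophoblast, 75.0% of the 4 blood and endothelial and 41.7% of ESC markers, beside 9.46% of all genes. The part of these other cells in the members' values was not tested.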

How the data were processed

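RNA-seq of 4 samples was analysed, 2 given ethanol and 2 given 4-OHT. The tools named by the submitters' processing notes are HISAT2, Trimmomatic, FastQC and edgeR, with the build mm10; a read counter, annotation or strand setting was not given in the sources used here. For each group the authors deposited a mean CPM. Their deposited log2 fold change and adjusted p-value columns were used for no gene, since with rows in text order of the gene number the p-value fell in 0 of 14381 steps and the log2 column had a Spearman rho of 0.018 with the log2 ratio of the means across genes.

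Reads per library were recovered from these means, in which every read of a library adds a fixed step. Both steps were fitted, and 100% of values in each column came out whole to 1.1 times the rounding error of the last printed digit, against 0.167% and 0.133% of values moved at random. A single pair of read numbers matched 99.7% of ethanol values and 99.95% of 4-OHT values; others were settled by libraries within 2-fold of each other, and 6 genes, no member among them, were left out. Column headers carry no replicate numbers, so A is only the larger library of a group.

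The test was limma 3.58.1 (trend) in R 4.3.3 on log2(CPM + 1), two-sided, Benjamini-Hochberg over 14376 genes, threshold 0.05, no filter. Fold changes on this scale understate those of low genes. Counting tests on recovered reads used edgeR 4.0.16 (quasi-likelihood) and DESeq2 1.42.0. Alternatives were a pseudocount of 0.1, a minimum mean CPM of 1, other scalings and leaving out each library; edgeR without each library was added after seeing the data. Members, lists and partner ratios were chosen with earlier results of these data known. All members were named, with up to 4 called genes of each other list with the largest change, the called genes of the marker lists, Pou5f1, Arid1a and Fn1. Symbols were matched to the deposited table, or by Entrez number to RefSeq for 746 genes; positions and exons are from Gencode M21 (mm10).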

Additional observations from a re-analysis of the deposited data

How the results depend on the processing

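The counts of members that rose and fell, 4 and 5, were 5 and 5 in edgeR and 3 and 3 in DESeq2. They were 3 and 5 with a pseudocount of 0.1, 5 and 5 with a mean CPM of at least 1, and the same 9 genes with either other scaling. The share called over all tested genes moved too, from 9.46% to 15.8% in edgeR, 5.21% in DESeq2 and 7.73% with the pseudocount of 0.1. It was 15.2% with the minimum mean CPM, 9.62% with DESeq2 size factors and 9.59% with total recovered reads. Leaving out a library leaves 1 in its group, assumed to vary like the other group, so that the spread comes from that other group alone; 8 of the 14 alternatives are of this kind. In limma it gave 0 to 4 rises and 0 to 5 falls among members, and 0 to 626 rises and 0 to 461 falls among all genes. The zeros came without 4-OHT A and without 4-OHT B (lowest adjusted p in limma 0.129 and 0.121, with 2505 and 2514 genes, 10 members each time, at an unadjusted p under 0.05). edgeR then called 5 and 5 members without 4-OHT A and 4 and 5 without 4-OHT B, and over the 4 libraries left out in turn 3 to 5 rises and 5 falls, with 662 to 943 rises and 579 to 824 falls among all genes. Over all genes, 754 rises and 606 falls became 385 and 319 in DESeq2, 1053 and 989 in edgeR, and 1053 and 981 with the minimum mean CPM. The 9 called members kept their sign in all 14 alternatives; Thy1 passed in 5 of them, Mmp14 in 10, Col5a2 in 11 and the other 6 in 12 each. No paired analysis was possible because the columns carry no replicate numbers. The summed fibroblast-defining markers, 303 CPM in both groups, were 313 in both with total recovered reads, 202 and 192 without Acta2, Lox, Twist1 and Pdgfra, and 223 and 215 without Acta2; leaving out a library gave 302 to 304 in ethanol and 297 to 309 with 4-OHT.

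Signs turned only in members that did not pass, all with a log2 change of 0.17 or less in size in limma. Over the 4 libraries left out in turn, limma gave Col1a1 -0.038 to 0.10, Col3a1 -0.34 to 0.012, Col5a1 -0.15 to 0.023, Lox -0.16 to 0.14, Loxl1 -0.26 to 0.12, Fbln2 -0.15 to 0.017, Tnc -0.012 to 0.26 and Vim -0.055 to 0.022. In edgeR the sign turned without 4-OHT A for Col1a1 (-0.039), Loxl1 (0.16) and Fbln2 (0.016), without ethanol A for Col3a1 (0.022), Col5a1 (0.023) and Tnc (-0.0044), without ethanol B for Lox (0.066) and Fbln2 (0.011), without 4-OHT B for Lox (0.15) and Vim (0.022), and with all libraries for Lox (0.0036). The cause was not tested. Depth limits Col6a3 and S100a4, at under 10 reads a library, and S100a4 also shares exon bases with another gene.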
